A study of Rattus norvegicus with 22 samples.

Results

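The levels of 10 genes of the endoplasmic reticulum stress system were followed by RNA-seq in rat fat. They are the lumenal chaperones and folding enzymes Hspa5, Hsp90b1, Pdia4, Pdia6, Hyou1 and Calr, the co-chaperone Dnajb9, and the transcription factors Xbp1, Atf4 and Ddit3. They were taken by name from a table of 24286 genes, and all 10 were present and passed the filter on low values that left 14019 genes for testing. The libraries number 22: visceral fat of the mesentery from 6 T2DM and 6 DJB samples, and subcutaneous fat of the groin from 5 T2DM and 5 DJB samples. T2DM denotes type 2 diabetes and DJB duodenal-jejunal bypass, surgery that joins the jejunum so that food skips the duodenum. All samples are labelled WT rat with 4 months in the title. The treatment label is HFD, a high-fat diet, in the T2DM groups and HFD+DJB in the DJB groups, and the protocol text shared by every sample names the toxin of insulin-producing cells STZ at 30 mg/kg and the operation. The labels name no group of healthy rats, of sham surgery or from before surgery, and they give neither strain nor age. They also leave unsaid whether replicates of a group are separate rats, so the spread behind each p-value is that of these samples and may be partly technical.

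The endoplasmic reticulum folds secreted and membrane proteins. When unfolded protein accumulates there, the sensors IRE1, ATF6 and PERK start the unfolded protein response: IRE1 splices the Xbp1 mRNA, cleaved ATF6 and spliced XBP1 switch on chaperone genes, and PERK slows translation while favouring that of ATF4, which in turn activates Ddit3. In fat the response is known from obesity, where it is linked to inflammation and insulin resistance, and from the heavy secretory work of adipocytes, plasma cells and fibroblasts. Gene counts hold neither the splice form of Xbp1 nor the translation of Atf4.

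The libraries held 46824314 to 88829000 counts. Mitochondrially encoded genes took 5.57% to 48.9% of them. Adipocyte markers (Adipoq, Plin1, Lep, Cidec, Lipe and Pnpla2, summed) were present in every group, with sums from 2175 to 14550 CPM in the visceral depot and from 196.2 to 6863 CPM in the subcutaneous depot, CPM being counts scaled to a common library total with edgeR's TMM factors. Visceral DJB libraries 5 and 6 stood apart from their group in the chaperone genes and are named throughout. Visceral T2DM libraries 2 and 5 stood apart in another respect, since their levels fell with transcript length (Spearman's rho across genes of -0.51 and -0.38 with transcript length, against -0.21 to 0.36 in the other 20). Visceral T2DM libraries 2, 3 and 4 held the urothelial marker genes Upk1a, Upk1b, Upk2 and Upk3a, which encode the uroplakins of the bladder lining, at sums of 1178, 1052 and 704.7 CPM, against 0.62 to 33.3 CPM in the other visceral libraries. T2DM library 2 also held exocrine pancreas markers at 398.5 CPM, against 3.93 to 19.0 CPM in the other visceral libraries. Visceral comparisons were therefore repeated leaving out the 2 libraries with the length trend, and again leaving out the 3 with urothelial markers. The tissue was bulk RNA, so fewer cells of a type and less RNA per cell cannot be told apart in any value below.

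In visceral fat edgeR called 3 of the 6 chaperone and folding enzyme genes higher after DJB, where it called 0.421% of all genes tested higher. The calls were not stable over the alternatives given below, and 2 of the 6 DJB libraries held most of the difference. Hspa5 encodes BiP, the Hsp70-type chaperone of the lumen that also holds the stress sensors inactive. Its level in the visceral DJB libraries 1 to 6 was 348.9, 480.7, 336.8, 291.8, 2043 and 2186 CPM. In the visceral T2DM libraries it lay between 195 and 410.8 CPM, with a median of 301.6. Libraries 5 and 6 stood above the highest of the other 10 visceral libraries by a ratio of 4.25, while the other 4 DJB libraries overlapped the T2DM range. Over all 6 libraries the difference was 1.66 on the log2 scale (SE 0.45, 3.16-fold) with an adjusted p of 0.0409 in edgeR's quasi-likelihood test.

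Hsp90b1 encodes the Hsp90-type chaperone of the lumen, GRP94. It measured 432.4, 618.9, 376.7, 429.7, 1855 and 2029 CPM in visceral DJB libraries 1 to 6 and 190.5 to 467.8 CPM, median 359.9, in visceral T2DM. Its difference was 1.43 (log2, SE 0.40, 2.70-fold; edgeR adjusted p 0.0438). Pdia4, a protein disulfide isomerase that forms and reshuffles disulfide bonds, measured 121.2, 125.5, 124.1, 113.6, 424 and 437 CPM after DJB against 54.1 to 122.2 CPM, median 93.7, in T2DM, a difference of 1.32 (log2, SE 0.33; edgeR adjusted p 0.0333). In both genes libraries 5 and 6 were again the high pair and the groups overlapped among the other libraries.

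The other 3 chaperone genes showed the same pair on top but did not pass the test. Hyou1, a large Hsp70-like protein that exchanges nucleotide on BiP, was at 488.7 and 445.4 CPM in libraries 5 and 6, at 82.1 to 90.8 CPM in the other 4 DJB libraries and at 26.1 to 103.8 CPM in T2DM (difference 1.51, SE 0.45, edgeR adjusted p 0.0554). Calr, encoding the calcium-binding lectin chaperone calreticulin, was at 1683 and 1756 CPM in that pair, 407.9 to 507.1 CPM in the other 4 and 329.5 to 581.5 CPM in T2DM (difference 1.06, SE 0.35, edgeR adjusted p 0.0766). Pdia6, another disulfide isomerase, was at 487 and 498.7 CPM in the pair, 138.8 to 250.8 CPM in the other 4 and 119.1 to 188.6 CPM in T2DM (difference 0.94, SE 0.30, edgeR adjusted p 0.0700). For these 3 genes the 4 remaining DJB libraries lay within the T2DM range, except Pdia6 in DJB library 2.

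Among the regulators and the co-chaperone the differences were smaller and did not pass the test. Dnajb9, a J-domain partner of BiP known as a target of XBP1, measured 49.4 and 63.3 CPM in DJB libraries 5 and 6 and 18.0 to 36.8 CPM in the other 10 visceral libraries (difference 0.52, SE 0.23, edgeR adjusted p 0.178). Xbp1 measured 159.9 and 149.5 CPM in that pair, and its highest other visceral library, T2DM library 3, was at 142 CPM. The 2 high libraries were therefore above the rest by a ratio of 1.05 in this gene, with a group difference of 0.15 (SE 0.25, edgeR adjusted p 0.765).

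Atf4 and Ddit3 did not follow the chaperones. Atf4 measured 349.3 and 365.8 CPM in DJB libraries 5 and 6, below DJB library 2 at 491.2 CPM and T2DM library 6 at 381.5 CPM (difference 0.24, SE 0.23, edgeR adjusted p 0.584). Ddit3, encoding CHOP, a factor tied to cell death under lasting stress, was at 32.8 and 34.4 CPM in that pair and at 21.3 to 23.6 CPM in the other 4 DJB libraries. Its 2 highest libraries were T2DM library 2 at 79.4 CPM and T2DM library 5 at 51.1 CPM, the 2 whose levels fell with transcript length. Its group difference was -0.49 (SE 0.30, edgeR adjusted p 0.346), and it turned to 0.20 without those 2 libraries, to 0.07 with the length trend removed and to 0.03 with libraries scaled to the same TPM sum. T2DM library 2 was also the lowest of all 22 libraries in 6 of the 10 genes: Hspa5, Hsp90b1, Pdia4, Hyou1, Calr and Dnajb9.

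**Figure D1:**
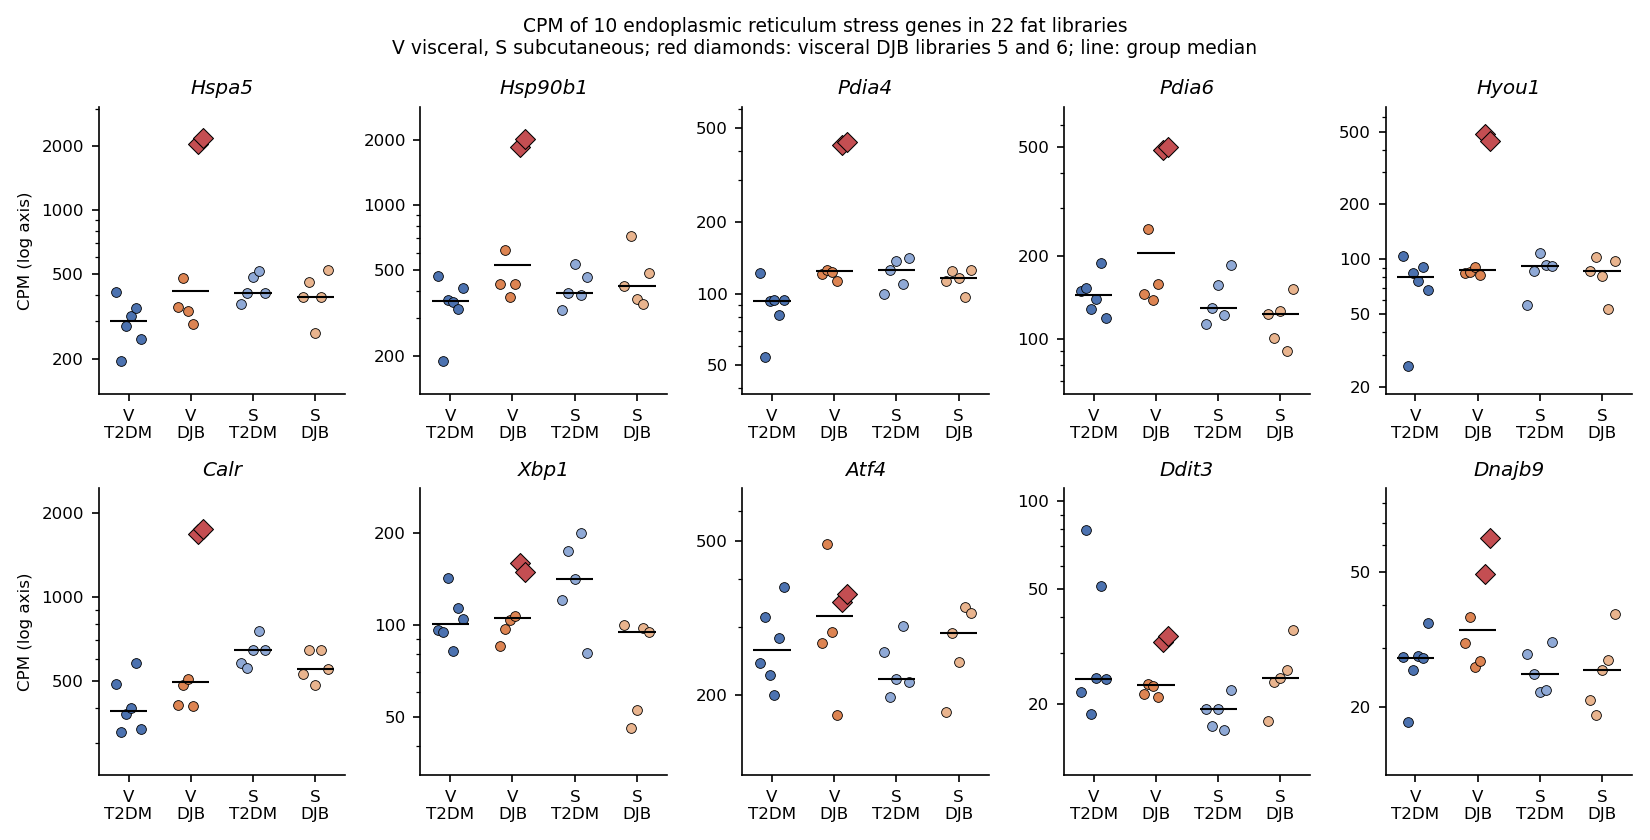
Levels of the 10 genes in every library, as CPM on a log axis, by depot (V visceral, S subcutaneous) and group, with the group median as a line. Visceral DJB libraries 5 and 6, drawn as red diamonds, stand above all other libraries in Hspa5, Hsp90b1, Pdia4, Pdia6, Hyou1, Calr and Dnajb9, at 2043 and 2186 CPM for Hspa5, but not in Xbp1, Atf4 or Ddit3.

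Of the 10 genes, 3 were called higher in visceral fat after DJB and 0 were called lower, at an adjusted p under 0.05. Over all genes tested 0.421% were called higher and 4.27% lower. The 10 genes were chosen with earlier results of these data known, so comparisons of them with all genes are description and no separate evidence. The unadjusted p was under 0.05 for 7 of the 10 and for 22.2% of all genes, and the median difference of the 10 was 1.00 (log2) against -0.03 over all genes. DESeq2 called 6 of the 10 higher, adding Hyou1, Calr and Pdia6, where it called 1.56% of its genes higher. For none of the 10 did all 6 DJB libraries exceed all 6 T2DM libraries, which was the case for 0.521% of genes tested. The call was not stable: limma on log2(FPKM + 1) called 0 of the 10 and 0 of all genes, with adjusted p of 0.283 for Hspa5, 0.271 for Hsp90b1 and 0.231 for Pdia4.

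Without DJB libraries 5 and 6 no gene of the 10 was called. The difference was then 0.28 (SE 0.24, edgeR adjusted p 0.587) for Hspa5, 0.40 (SE 0.27, adjusted p 0.474) for Hsp90b1 and 0.43 (SE 0.19, adjusted p 0.256) for Pdia4, and the median of the 10 fell from 1.00 to 0.18. Without T2DM libraries 2, 3 and 4, those with urothelial markers, none of the 10 was called either, but the differences stayed at 1.502 (SE 0.60, edgeR adjusted p 0.371) for Hspa5, 1.24 (SE 0.52, adjusted p 0.384) for Hsp90b1 and 1.17 (SE 0.43, adjusted p 0.287) for Pdia4, with a median of 0.89. Over all 34 alternatives to the main analysis the adjusted p lay between 0.00418 and 0.587 for Hspa5, 0.00541 and 0.474 for Hsp90b1, and 0.00229 and 0.287 for Pdia4. Xbp1 changed sign without the pair, to -0.10. Leaving out a single library left 0 of the 10 called for each of visceral T2DM 2 and 5 and visceral DJB 1, 2, 3, 5 and 6. It left 1 called for each of visceral T2DM 3 and subcutaneous T2DM 1, 2 and 3. The difference itself stayed between 1.22 and 1.83 for Hspa5 over these 22 fits.

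**Figure D2:**
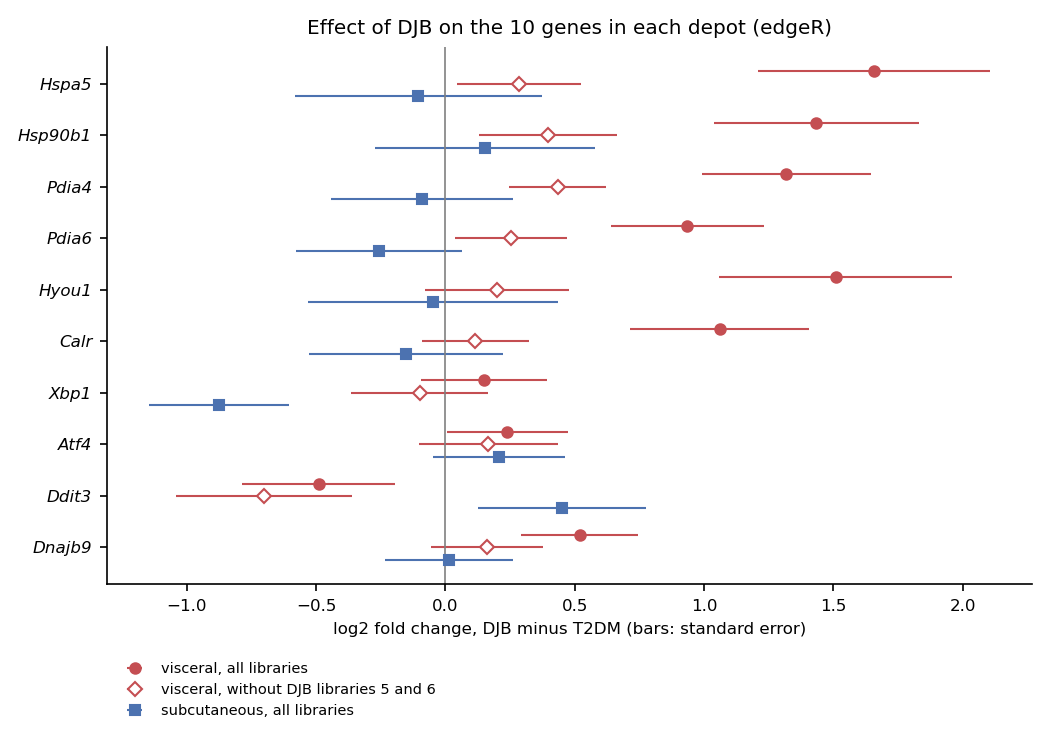
Difference DJB minus T2DM (log2 fold change, edgeR; bars, standard error) for each of the 10 genes in visceral fat with all libraries, in visceral fat without DJB libraries 5 and 6, and in subcutaneous fat. For Hspa5 the 3 values are 1.66, 0.28 and -0.10.

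The sequences before the start of these genes are shown because chaperone genes are known to carry stress response elements there. ATF6 and XBP1 are known to act through the ER stress response element, ERSE, searched here as CCAAT and CCACG with 9 bases of any kind between them, and the shorter ERSE-II, ATTGG and CCACG with 1 base between them. XBP1 and ATF6 also bind UPRE, searched as TGACGTGG, and ATF4 with C/EBP factors binds an element searched as TTGCATCA. Each was searched on both strands in the 250 bases before each annotated start in RefSeq (GRCr8), which gave 10 windows for 9 of the 10 genes. Pdia6 had no window in the table, and Hyou1 had 2. The windows printed are those of the 5 genes that held a motif, for Hyou1 the first window, and of Pdia4 as a called gene with none. They run 5′ to 3′ toward the start on the gene's strand, with motif matches in capitals.
Hspa5: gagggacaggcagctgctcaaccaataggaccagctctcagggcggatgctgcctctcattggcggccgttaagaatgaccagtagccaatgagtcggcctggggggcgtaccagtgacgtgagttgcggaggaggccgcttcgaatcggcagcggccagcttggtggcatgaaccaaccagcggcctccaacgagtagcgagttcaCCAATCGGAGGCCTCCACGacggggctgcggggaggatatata
Hsp90b1: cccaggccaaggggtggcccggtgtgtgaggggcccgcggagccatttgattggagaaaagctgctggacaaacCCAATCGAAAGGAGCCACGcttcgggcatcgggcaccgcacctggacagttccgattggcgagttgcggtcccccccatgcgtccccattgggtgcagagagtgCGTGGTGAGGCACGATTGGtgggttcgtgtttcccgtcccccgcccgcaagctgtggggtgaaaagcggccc
Hyou1: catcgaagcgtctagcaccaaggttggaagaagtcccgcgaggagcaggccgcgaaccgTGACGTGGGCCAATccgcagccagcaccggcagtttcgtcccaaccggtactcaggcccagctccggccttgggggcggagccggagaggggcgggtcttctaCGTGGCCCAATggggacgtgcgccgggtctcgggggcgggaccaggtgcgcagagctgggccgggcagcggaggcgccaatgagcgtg
Calr: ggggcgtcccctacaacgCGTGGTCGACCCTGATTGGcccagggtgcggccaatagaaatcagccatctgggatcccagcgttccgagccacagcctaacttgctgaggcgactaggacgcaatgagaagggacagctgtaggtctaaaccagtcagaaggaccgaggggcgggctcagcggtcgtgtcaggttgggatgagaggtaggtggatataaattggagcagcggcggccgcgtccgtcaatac
Xbp1: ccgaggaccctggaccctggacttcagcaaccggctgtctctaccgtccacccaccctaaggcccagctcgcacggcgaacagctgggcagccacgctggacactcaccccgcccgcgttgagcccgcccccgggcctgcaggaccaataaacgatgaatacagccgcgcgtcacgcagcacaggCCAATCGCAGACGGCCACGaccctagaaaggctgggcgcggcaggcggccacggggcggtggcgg
Pdia4: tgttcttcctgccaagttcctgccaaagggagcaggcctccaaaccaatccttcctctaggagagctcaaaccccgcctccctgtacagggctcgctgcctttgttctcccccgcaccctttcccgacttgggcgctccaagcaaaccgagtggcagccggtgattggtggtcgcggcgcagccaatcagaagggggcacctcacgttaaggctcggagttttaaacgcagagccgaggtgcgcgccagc

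These windows lie at chr3:38452766-38453015, plus strand, for Hspa5; chr7:23012294-23012543, minus strand, for Hsp90b1; chr8:53602632-53602881, plus strand, for Hyou1; chr19:40213117-40213366, plus strand, for Calr; chr14:84604373-84604622, plus strand, for Xbp1, and chr4:78153192-78153441, minus strand, for Pdia4. ERSE was found once in Hspa5, from 43 to 25 bases before the start, and 2 times in Hsp90b1, from 176 to 158 and from 72 to 54 bases before it. Calr held it from 232 to 214 and Xbp1 from 65 to 47 bases before the start. Hyou1 held ERSE-II at 188 to 178 and 88 to 78 bases before its first start, and UPRE at 191 to 184, overlapping the farther ERSE-II. The ATF4 element was in none of the 10 windows.

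Over the 33469 windows of 27457 genes in the RefSeq table, ERSE was in 0.0657%, ERSE-II in 0.0418%, UPRE in 0.52% and the ATF4 element in 0.693%. Of the tested genes with ERSE, 10 of 15 had both visceral DJB libraries 5 and 6 above the other 10 visceral libraries, among them the 4 named here. For ERSE-II this held for 4 of 9, for UPRE for 12 of 79 and for the ATF4 element for 11 of 56, and for 8.37% of all genes tested. These counts describe letters in a window, and libraries 5 and 6 were picked by the level of Hspa5, so no test was made of them.

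**Figure D3:**
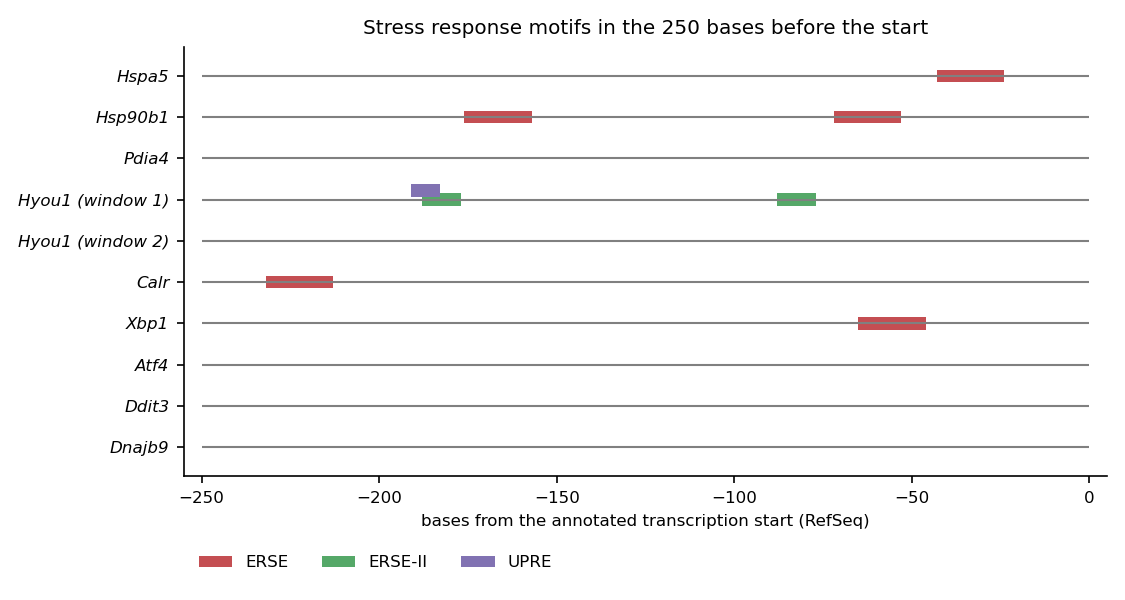
Positions of ERSE, ERSE-II and UPRE matches in the 250 bases before the annotated start (x axis, bases from the start) of the 9 genes with a RefSeq window; Hyou1 has 2 windows. Matches sit in Hspa5, Hsp90b1, Calr, Xbp1 and the first Hyou1 window.

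In subcutaneous fat none of the 10 genes was called between DJB and T2DM. Hspa5 measured 362.9, 406.9, 485.7, 518.8 and 406.6 CPM in the T2DM libraries and 392, 457, 264.4, 389.6 and 526.1 CPM after DJB, with overlapping groups and a difference of -0.10 (SE 0.48, edgeR adjusted p 0.990). The difference was 0.15 (SE 0.43) for Hsp90b1, whose DJB library 2 was the highest at 718.7 CPM, and -0.09 (SE 0.35) for Pdia4. edgeR called 0 of the 10 and 0% of all genes tested, with an unadjusted p under 0.05 for 1 of the 10 and for 8.98% of all genes, and DESeq2 and limma also called 0 of the 10.

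That 1 gene was Xbp1. It measured 120.2, 174.2, 141.8, 200.7 and 80.5 CPM in subcutaneous T2DM and 99.99, 45.9, 52.5, 97.7 and 94.9 CPM after DJB. T2DM libraries 1 to 4 were above all 5 DJB libraries, and T2DM library 5 lay within the DJB range. The difference was -0.88 (SE 0.27, unadjusted p 0.00393, edgeR adjusted p 0.268), and it stayed negative in all 34 alternatives, between -1.12 and -0.72, with adjusted p from 0.0681 to 0.801. The milk protein genes Csn1s1, Csn2, Csn3, Lalba, Wap and Glycam1, markers of mammary tissue, had a lower median in the DJB group, with none of the 6 at 0 in all libraries of a group. Their sum was 516.2 to 179400 CPM, median 93070, in subcutaneous T2DM and 650.3 to 93130 CPM, median 8253, after DJB. Their part in the Xbp1 value was not tested.

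Whether the effect of DJB differed between the depots was tested as an interaction. For Hspa5 the visceral effect exceeded the subcutaneous one by 1.76 (log2, SE 0.65), for Pdia4 by 1.41 (SE 0.48) and for Xbp1 by 1.03 (SE 0.36), with edgeR adjusted p of 0.263, 0.243 and 0.255. edgeR called 0 of the 10 and 0% of all genes, so a difference between the depots was not shown. The unadjusted p was under 0.05 for 8 of the 10 and for 1957 of the 14019 genes tested, and neither DESeq2 nor limma called any of the 10. Without visceral DJB libraries 5 and 6 the median of the 10 interaction values moved from 1.20 to 0.25.

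Between the depots none of the 10 genes was called by edgeR in T2DM, where 5.44% of genes tested were called higher in visceral fat and 3.28% lower. Visceral minus subcutaneous differences lay between -0.60 for Calr (SE 0.36) and 0.96 for Ddit3 (SE 0.32, edgeR adjusted p 0.0603), with a median of -0.23 against 0.02 over all genes. The unadjusted p was under 0.05 for 1 of the 10 and for 24.6% of all genes, and DESeq2 called that 1 gene, Ddit3, while limma called none. Ddit3 measured 19.4, 16.8, 19.2, 16.3 and 22.3 CPM in subcutaneous T2DM and, in visceral T2DM libraries 1 to 6, 22.1, 79.4, 18.6, 24.6, 51.1 and 24.5 CPM. Without visceral T2DM libraries 2 and 5 its depot difference was 0.27 (SE 0.20, edgeR adjusted p 0.590), and over its 35 alternatives the adjusted p lay between 0.0244 and 0.847.

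After DJB all 10 depot differences were above 0, with a median of 0.78 against -0.04 over all genes, but none was called by edgeR, where 0.228% of genes were called higher in visceral fat and 1.09% lower. Pdia6 came nearest, at 1.24 (SE 0.32, edgeR adjusted p 0.0518), and was called by DESeq2, which called no other of the 10, while limma called none. The unadjusted p was under 0.05 for 7 of the 10 and for 14.5% of all genes. Without visceral DJB libraries 5 and 6 the median was 0.05, and Hspa5, Hsp90b1, Calr and Ddit3 turned to -0.15, -0.0047, -0.34 and -0.20.

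Scaled by transcript length (FPKM, in which counts are divided by length and by library total), the median level over the 22 libraries was highest for Calr at 282.9, followed by Hspa5 at 144.1, Atf4 at 134.8, Hsp90b1 at 130.8, Xbp1 at 84.2, Pdia6 at 80.7, Pdia4 at 50.2, Ddit3 at 23.8, Hyou1 at 19.4 and Dnajb9 at 11.8. The ranges over libraries of each neighbouring pair in this order overlapped. Within libraries Calr was above Hspa5, and Pdia6 above Pdia4, in 22 of 22, and Pdia4 was above Ddit3 in 20. Hspa5 was above Atf4 in 13, Atf4 above Hsp90b1 in 12 and Xbp1 above Pdia6 in 11 of the 22, so the order of these neighbours changed from library to library. Hspa5 ranged from 35.7 FPKM in visceral T2DM library 2 to 921.5 FPKM in visceral DJB library 6, and Atf4 from 77.0 to 204.3 FPKM. The wider range of Hspa5 rested mainly on visceral DJB libraries 5 and 6. In the other 20 libraries Hspa5 lay between 195 and 526.1 CPM and Atf4 between 177.2 and 491.2 CPM, which are similar ranges.

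The 6 chaperone and folding enzyme genes shared the rise in the same 2 libraries. Summed over Hspa5, Hsp90b1, Pdia4, Pdia6, Hyou1 and Calr, the level in visceral DJB libraries 5 and 6 was 6982 and 7352 CPM, against 948.6 to 2150 CPM in the other 20. As a measure of likeness, the root mean square difference from Hspa5 in log2 CPM, each gene centred on its mean over 22 libraries, was 0.29 for Hsp90b1, 0.30 for Pdia4, 0.31 for Calr, 0.33 for Hyou1, 0.49 for Pdia6 and 0.59 for Dnajb9. It was 0.76 for Xbp1, 0.77 for Atf4 and 0.95 for Ddit3, and its median over all genes tested was 1.03. Hsp90b1, Pdia4, Calr and Hyou1 were the 4 nearest of all genes tested. The measure weighs visceral DJB libraries 5 and 6 most. Hspa5 stood at 2.27 and 2.36 from its mean there and between -1.12 and 0.31 in the other 20. A value under the median of all genes therefore need not mean a shared pattern outside the pair. In subcutaneous DJB library 2, for instance, Hsp90b1 was at 0.62 and Pdia6 at -0.64 from their means.

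Outside the 10, the nearest genes by this measure were Ficd at 0.36, Jpt2 at 0.39, Dnajc3 at 0.40, Agfg1 at 0.41, Dnajb11 at 0.44, Gmppb at 0.45, Pdia3 at 0.47, Jak2 at 0.48, Txnrd1 at 0.48 and Hif1a at 0.49. Ficd, the enzyme that attaches AMP to BiP, measured 46.5 and 43.0 CPM in the visceral DJB pair, 5 and 6, and 6.86 to 15.2 CPM in the other visceral libraries. Dnajb11, a J-domain partner of BiP, measured 151.8 and 154 CPM against 35.1 to 66.5 CPM. Hif1a, the oxygen-regulated transcription factor, measured 445.5 and 468.2 CPM against 57.3 to 179.4 CPM. None of these 10 was called by edgeR, at adjusted p between 0.0588 and 0.150. All 10 shared the same high pair, which their choice by likeness to Hspa5 favoured.

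Many other genes were also high in those 2 libraries. In 1173 of 14019 genes, 8.37%, both stood above the other 10 visceral libraries, and in 83 genes at least 2-fold above. Of the 10 chaperone and stress genes 8 did so, all but Atf4 and Ddit3. The 59 genes called higher in visceral fat after DJB included 26 of this kind, among them Hspa5, Hsp90b1 and Pdia4. The pair was chosen by the level of Hspa5, so these counts carry no test.

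The genes standing farthest above the other visceral libraries were Ptx3, Prg4, Vcan, Steap1, Tubb3, Osr1, Slc39a14, Lox, Cyp1b1 and Lbp. Ptx3, the secreted pattern-recognition protein pentraxin 3, measured 453.3 and 515.8 CPM in DJB libraries 5 and 6 and 1.13 to 25.6 CPM in the other 10, a ratio of 17.7 to the highest of them. Prg4, the lubricating proteoglycan of joint and serosal surfaces, measured 388.4 and 259.7 CPM against 8.30 to 36.1 CPM. Vcan, the matrix proteoglycan versican, measured 449.4 and 290.5 CPM against 7.99 to 41.1 CPM.

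Of these 10 genes edgeR called 3 higher after DJB, where 0.421% of all genes tested were called higher. The 10 were chosen for high values in 2 of the DJB libraries, which by itself favours a higher DJB mean. The calls are therefore given as description and are no separate evidence. Osr1, a transcription factor of mesenchymal progenitors, differed by 2.31 (log2, SE 0.55), Slc39a14, a zinc and iron importer, by 2.61 (SE 0.57) and Cyp1b1, a cytochrome P450 of stromal cells, by 2.51 (SE 0.60), each at an adjusted p of 0.0329. Lox, which crosslinks collagen, measured 201.6 and 164.3 CPM against 10.0 to 37.4 CPM, and Lbp, which carries bacterial lipopolysaccharide, 124.2 and 187.5 CPM against 16.0 to 30.9 CPM. In subcutaneous fat Lbp lay between 30.7 and 1612 CPM, so the pair stood out in it within visceral fat alone.

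**Figure D4:**
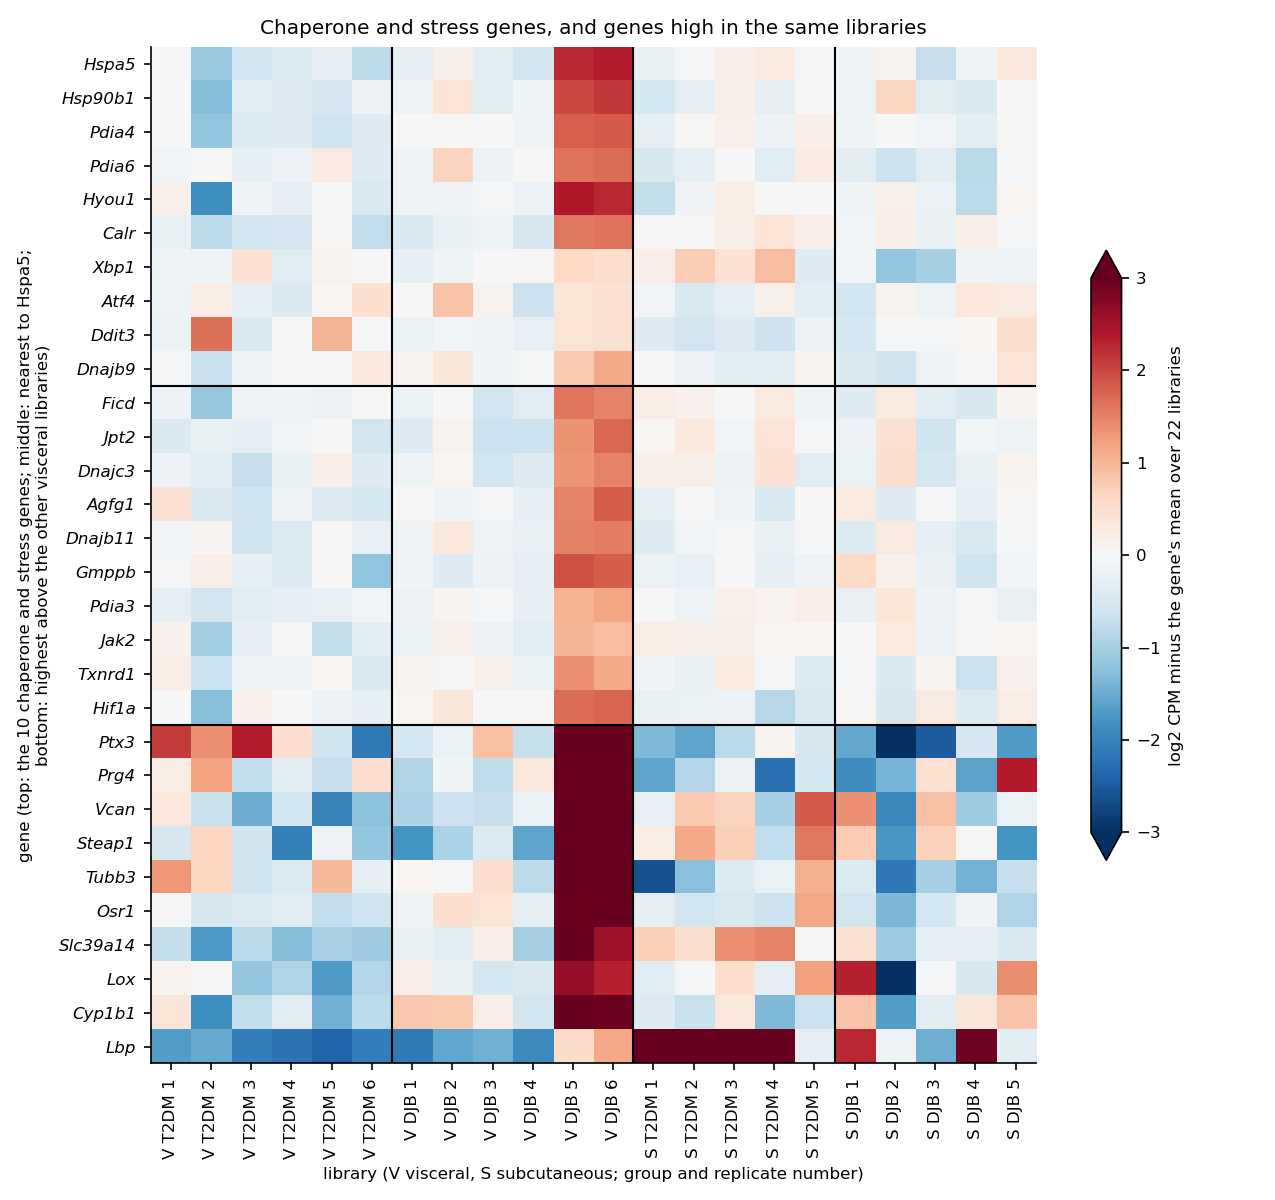
Level of each gene in each library as log2 CPM minus the gene's mean over 22 libraries (color), for the 10 chaperone and stress genes, the 10 other genes nearest to Hspa5 and the 10 genes highest in visceral DJB libraries 5 and 6 relative to the other visceral libraries. Those 2 columns are red in every row, weakly so for Xbp1, Atf4 and Ddit3, while Lbp is higher still in several subcutaneous libraries.

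The 2 libraries also resembled each other overall. Among all pairs of libraries in the same group, they had the lowest mean chi-square per gene, 118.2. The next lowest was 154.7, for visceral DJB libraries 1 and 3. The 2 libraries differed far beyond counting noise, so they are not the same library counted again, and they were kept as 2 samples. This value cannot show whether they come from separate rats or separate pieces of tissue, and that was not tested. The visceral p-values treat them as 2 separate samples and could be too small if they share an origin. Mitochondrially encoded genes took 15.9% and 19.6% of their counts and 27.7% to 48.9% in the other 4 visceral DJB libraries.

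Marker lists of other cell types differed in the pair to different degrees and in both directions. The 5 macrophage markers Cd68, Cd163, Mrc1, Adgre1 and Csf1r summed to 960.8 and 1457 CPM in DJB libraries 5 and 6 and 180.4 to 821.9 CPM in the other 10 visceral libraries. The pair was above the other 10 in 2 of the 5, Cd163 and Mrc1, and none of the 5 was at 0. The range of the sum was 180.4 to 821.9 CPM in visceral T2DM, 344.7 to 1457 CPM in visceral DJB, 211.1 to 1561 CPM in subcutaneous T2DM and 164.1 to 631.4 CPM in subcutaneous DJB. The 5 fibroblast markers Pdgfra, Col1a1, Dcn, Pi16 and Dpp4 summed to 4349 and 5565 CPM in the pair against 1098 to 4565 CPM, with the pair above the other 10 in Pdgfra. Their group ranges were 1098 to 4565, 1492 to 5565, 1993 to 33650 and 539.5 to 16600 CPM in the same order of groups. The 4 neutrophil markers S100a8, S100a9, Csf3r and Cxcr2 summed to 81.8 and 67.5 CPM in the pair and 7.79 to 11.8 CPM in the other 4 visceral DJB libraries. Their sum was 9.55 to 162.6 CPM, median 38.2, in visceral T2DM, 5.05 to 14.9 CPM in subcutaneous T2DM and 7.97 to 34.7 CPM in subcutaneous DJB, and none of the 4 was at 0 in all libraries of a group. The part of these 3 cell types in the chaperone levels was not tested.

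Markers of plasma cells, exocrine pancreas and milk-secreting cells lay within the range of the other 10 visceral libraries in the pair. The 6 plasma cell markers (Jchain, Mzb1, Tnfrsf17, Sdc1, Derl3 and Prdm1) summed to 90.6 and 56.8 CPM in libraries 5 and 6 and 55.7 to 542.6 CPM in the other 10. The 8 exocrine pancreas markers in the table summed to 4.80 and 4.37 CPM against 3.93 to 398.5 CPM, and Clps was at 0 in all 6 visceral DJB libraries. Milk protein genes summed to 316 and 362.1 CPM against 0.78 to 590.2 CPM. Adipocyte markers, at 2928 and 2175 CPM against 2415 to 14550 CPM, were within that range in library 5 and below it in library 6, and none of them was at 0. The endothelial markers Cdh5, Tie1 and Kdr summed to 827.8 and 895.6 CPM in libraries 5 and 6 and 221.9 to 2010 CPM in the other 10. The smooth muscle markers Acta2, Myh11 and Tagln summed to 619.5 and 582.8 CPM against 477 to 3040 CPM. Both sums were below those of the other 4 visceral DJB libraries, whose lowest values were 1271 and 1235 CPM. The part of these cell types was not tested.

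The wider pathway was described through 9 lists of genes outside the 10, also chosen with earlier results of these data known. For comparison, edgeR called 0.421% of all genes tested higher in visceral fat and 4.27% lower. At an unadjusted edgeR p under 0.05, 801 of the 14019 genes were higher and 2305 lower. DESeq2 called 215 higher and 1244 lower, and the pair was on top in 8.37% of all genes tested. Of 23 tested folding enzymes and co-chaperones 0 were called by edgeR in visceral fat, 10 had an unadjusted p under 0.05, all higher, and DESeq2 called 4. Their median was 0.62, and 13 had the pair on top. Those with the smallest p were Dnajb11 at 0.88 (SE 0.28), the lectin chaperone Canx at 0.68 (SE 0.23), Pdia3 at 0.71 (SE 0.25) and the disulfide isomerase P4hb at 0.89 (SE 0.31), with edgeR adjusted p from 0.0742 to 0.0948. P4hb measured 1169 and 1119 CPM in libraries 5 and 6 and 317.8 to 625.6 CPM in the other 10. Without the pair the median of the list was 0.19.

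Of 24 tested genes of translocation and vesicle transport 3 were called higher and 0 lower, against 0.421% and 4.27% of all genes tested. They were Ssr3 at 0.76 (SE 0.20, edgeR adjusted p 0.0361) and Ssr1 at 0.71 (SE 0.20, adjusted p 0.0499), subunits of the translocon-associated complex, and Spcs3 at 1.05 (SE 0.30, adjusted p 0.0484), a signal peptidase subunit. Spcs3 measured 198.2 and 294.4 CPM in the pair against 50.6 to 122.5 CPM. Sec61g, a small translocon subunit, was at -2.52 (SE 0.77, adjusted p 0.0598). It measured 17.9 and 17.0 CPM in the pair, 7.40 to 394.6 CPM in the other 10 and 7.53 to 17.4 CPM in subcutaneous fat. The part of the length trend in Sec61g was not tested. At an unadjusted edgeR p under 0.05, 10 genes of the list were higher and 3 lower, so the list did not move one way. DESeq2 called 4 of them higher and 0 lower. The list median was 0.38, and 0.05 without the pair.

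Of 17 tested genes of ER-associated degradation 0 were called, 1 had an unadjusted p under 0.05 and DESeq2 called 0, with a median of 0.04. Their sum was 1662 and 1676 CPM in libraries 5 and 6 and 1057 to 1248 CPM in the other 10, and the pair was on top in 5 of the 17. Sel1l, the adaptor of the ligase complex, was at 0.72 (SE 0.26, edgeR adjusted p 0.104), the lectin Os9 at 0.36 (SE 0.17) and Edem1 at 0.61 (SE 0.33). Of 11 tested sensors and their proteases 0 were called, 0 had an unadjusted p under 0.05 and DESeq2 called 0, with a median of 0.32 that was 0.02 without T2DM libraries 2 and 5. The pair was on top in 3 of the 11. Creb3l1, a membrane-bound factor of secretory cells, was at 1.39 (SE 0.69) and Atf6b at 0.36 (SE 0.21), both among these 3. Ern1, which encodes IRE1, was at 0.32 (SE 0.24).

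Targets of ATF4 and CHOP were divided. Of 24 tested, 0 were called by edgeR, 3 had an unadjusted p under 0.05 and were higher, 8 were lower, and DESeq2 called 1 higher and 4 lower, with a median of -0.03. Eif4ebp1, a brake on translation, was at -1.64 (SE 0.51, edgeR adjusted p 0.0626), the synthetases Wars1 at -1.19 (SE 0.40) and Asns at -1.26 (SE 0.43), and the pseudokinase Trib3 at -1.35 (SE 0.49). Eif4ebp1 measured 56.2 and 43.1 CPM in libraries 5 and 6 and 21.2 to 408.6 CPM in the other 10. Asns measured 51.9 and 36.1 CPM against 19.6 to 168.8 CPM, so neither was high in the pair. In 7 of the 24 the pair was on top, among them the amino acid transporter Slc7a5 at 40.0 and 21.5 CPM against 1.44 to 5.80 CPM (difference 1.74, SE 0.64, edgeR adjusted p 0.108), the proline synthesis enzyme Aldh18a1 at 31.5 and 33.0 CPM against 2.07 to 12.2 CPM, and the mitochondrial folate enzyme Mthfd2 at 22.5 and 16.6 CPM against 2.47 to 7.496 CPM. Without the pair the median of the list was -0.38, and without T2DM libraries 2 and 5 it was 0.02.

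Of 19 tested cytosolic heat shock genes 1 was called lower and 0 higher, where 4.27% of all genes tested were called lower. The 1 gene was Hspe1, the mitochondrial co-chaperonin listed with them, at -2.36 (SE 0.63, edgeR adjusted p 0.0396). It measured 22.7 and 23.4 CPM in libraries 5 and 6, 9.14 to 332.8 CPM in the other 10 and 5.80 to 22.5 CPM in subcutaneous fat. The part of the length trend in Hspe1 was not tested. The list median was 0.05, and -0.37 without the pair. The sum of the heat shock genes was 6248 and 6247 CPM in libraries 5 and 6 and 2685 to 5973 CPM in the other 10, and the pair was on top in 6 of the 19, among them the cytosolic chaperone Hsp90aa1 at 486.9 and 637.8 CPM against 184.8 to 303.6 CPM. Of 18 immediate early genes 0 were called by edgeR or DESeq2 and 0 had an unadjusted p under 0.05, with a median of 0.37, which was -0.02 without T2DM libraries 2 and 5, and the pair on top in 0 of them. Zfp36 was at 0.92 (SE 0.46) and Jun at 0.74 (SE 0.55). Of 19 hypoxia and glycolysis genes 1 was called lower, again where 4.27% of all genes tested were. This was Egln3, an oxygen-sensing hydroxylase, at -1.69 (SE 0.41, edgeR adjusted p 0.0333). DESeq2 called 2 of the list higher and 3 lower. The list median of -0.31 turned to 0.24 without T2DM libraries 2 and 5 and to -0.75 without the pair. The pair was on top in 5 of these 19 and below the other 10 visceral libraries in Egln3, Pdk1 and Bnip3. In DJB libraries 5 and 6 Egln3 measured 5.84 and 3.90 CPM against 7.56 to 61.4 CPM. Pdk1 measured 11.8 and 12.8 CPM against 16.4 to 70.6 CPM, and Bnip3 142.5 and 147.9 CPM against 148.4 to 1004 CPM. The vasodilator peptide gene Adm was at 1.70 (SE 0.51, adjusted p 0.0591) with the pair on top, at 221.6 and 237.8 CPM against 18.9 to 84.7 CPM.

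The sum of the inflammatory cytokine genes was also higher in the pair, though not every gene was. The list summed to 2651 and 1340 CPM in DJB libraries 5 and 6 and 346.5 to 1219 CPM in the other 10. Of 14 tested genes 1 was called higher, Csf3, the granulocyte growth factor, at 3.90 (SE 1.05, edgeR adjusted p 0.0407), with 36.8 and 17.2 CPM in the pair against 0.12 to 4.45 CPM. Over all genes tested 0.421% were called higher and 8.37% had the pair on top. The pair was on top in 6 of the 14, among them the monocyte chemokine Ccl7 at 228.8 and 167 CPM against 8.35 to 62.0 CPM. It was not in the others, among them Il1b at 61.8 and 10.8 CPM against 3.76 to 85.0 CPM and Nfkbia at 590.5 and 364.3 CPM against 88.8 to 559.7 CPM. The median of the list was 0.98, and -0.28 without the pair.

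**Figure D5:**
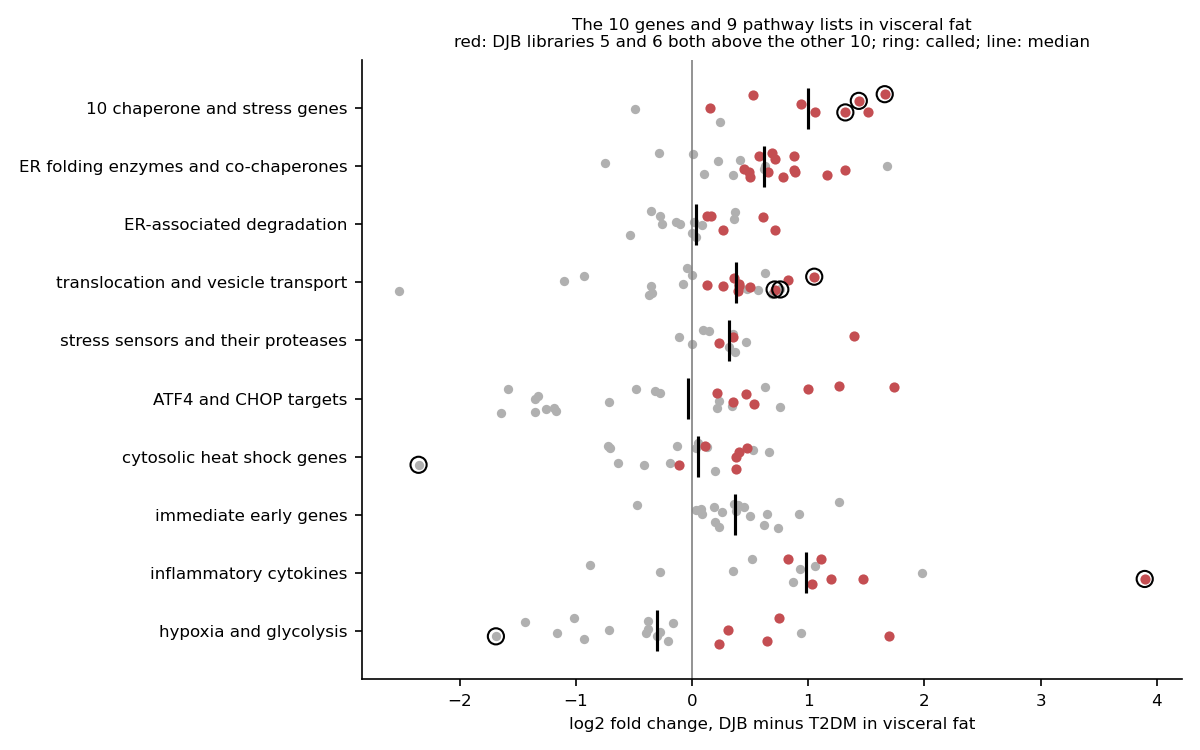
Difference DJB minus T2DM in visceral fat (x axis, log2 fold change) for the 10 chaperone and stress genes and the genes of 9 pathway lists; each point is a gene, red where visceral DJB libraries 5 and 6 both stood above the other 10, ringed where called, with the list median as a line. The median is 1.00 for the 10 genes, 0.62 for the folding enzymes and 0.98 for the inflammatory cytokines, and -0.03 for the targets of ATF4 and CHOP.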

How the data were processed

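The authors deposited 1 table with read counts and FPKM per gene for 22 bulk RNA-seq libraries, per the file headers. RNA was extracted with Trizol, per the labels' protocols. The submitters' processing notes name cutadapt 1.9 and FastQC. Not given in the sources used here are aligner, counter, strand setting and annotation. The build is in doubt, so no coordinates of the table are printed. The 2 units came from the same counting: their ratio was constant per gene up to a library factor (SD 0.00151, log2). Groups follow the sample titles.

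Those 14019 genes whose FPKM reached 1 in 5 or more libraries were tested with edgeR 4.0.16 (quasi-likelihood, TMM factors 0.543 to 1.39, 4 group means, all 22 libraries; R 4.3.3), two-sided, Benjamini-Hochberg adjusted over all of them, threshold 0.05. limma 3.58.1, DESeq2 1.42.0 and other settings were alternatives. The steps were tested on simulated data. At 46824314 to 88829000 counts, counting error is minor for all 10 genes next to the variation among libraries.

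The 10 genes, the gene lists and libraries 5 and 6 were chosen with earlier results of these data known. Named besides the 10 were up to 4 genes of smallest p per list in visceral fat, the 10 nearest to Hspa5, and the 10 genes (mean FPKM of at least 2 in visceral DJB) standing farthest above in the 2 visceral libraries highest in Hspa5. Other named genes were chosen after their values were seen.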

Additional observations from a re-analysis of the deposited data

How the results depend on the processing

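In visceral fat, robust empirical Bayes estimation also called 3 of the 10 genes. DESeq2 called 6, removing the length trend left 1, and 0 were called with limma on log2(FPKM + 1) or log2(FPKM + 0.1), with no filter on low values, with TPM scaling, with only the groups compared, and without visceral DJB libraries 5 and 6, visceral T2DM libraries 2 and 5, or visceral T2DM libraries 2, 3 and 4. Leaving out 1 library at a time gave 0 to 4. Of the genes on the 9 lists 6 were called, 4 with robust estimation, 22 with DESeq2, 2 with the length trend removed, 0 under the other settings just named, and 0 to 19 leaving out 1 library. Over all genes the visceral count was 658, 1459 with DESeq2 and 0 with limma. In subcutaneous fat and for the depot interaction the count of the 10 stayed 0 in every alternative run. Between the depots it was 1 with DESeq2 in T2DM, 1 with DESeq2 and 1 with the length trend removed after DJB, and 0 to 1 leaving out 1 library in either. Under the other settings these 2 counts stayed 0. The cause of these shifts was not tested.

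Replicate numbers were checked as a possible pairing. Same-numbered libraries correlated between -0.17 and 0.33 in their deviations from the group means, not all above 0.1, so the numbers were not treated as pairs. With the replicate number as a block 0 of the 10 genes and 0 listed genes passed in visceral fat. Under this block Dnajb9 turned to -0.007 (subcutaneous) and -0.052 (depots in T2DM) and Pdia6 to -0.0038 (depots in T2DM), and with treatment and number as the block Dnajb9 turned to -0.026 (depots in T2DM) and Ddit3 to -0.049 (depots after DJB).

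Some differences changed sign, the largest of those with all libraries being that of Hspa5 between the depots after DJB (1.22). In visceral fat Ddit3 turned to 0.029 with TPM scaling, 0.20 without T2DM libraries 2 and 5 and 0.067 with the length trend removed, and Xbp1 to -0.099 without DJB libraries 5 and 6. In subcutaneous fat Dnajb9 turned to -0.090 and -0.10 with the limma settings, -0.0036 with no filter and -0.26 with TPM scaling. TPM scaling, which moved the median of all genes there from 0.05 to -0.21, also turned Hsp90b1 to -0.16 and Atf4 to -0.12, and the length trend removed turned Hyou1 to 0.030. Leaving out 1 library gave -0.22 to 0.017 for Hspa5, -0.067 to 0.26 for Hsp90b1, -0.17 to 0.083 for Hyou1 and -0.15 to 0.10 for Dnajb9. In the interaction Atf4 turned to -0.053 without DJB libraries 5 and 6 and -0.10 without T2DM libraries 2, 3 and 4, and lay between -0.15 and 0.11 leaving out 1 library.

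Between the depots in T2DM the limma settings turned Pdia6 to -0.25 and -0.25, Atf4 to -0.13 and -0.13 and Dnajb9 to -0.22 and -0.25. TPM scaling, which moved the median of all genes to -0.46, turned them to -0.51, -0.34 and -0.36. Pdia6 turned to -0.063 without T2DM libraries 2 and 5 and -0.078 with the length trend removed, and Hyou1 to 0.002 without T2DM libraries 2, 3 and 4. Leaving out 1 library gave -0.057 to 0.17 for Pdia6 and -0.015 to 0.14 for Dnajb9. After DJB Ddit3 turned to -0.045 and -0.048 with limma, -0.013 with TPM scaling and -0.20 without DJB libraries 5 and 6, and lay between -0.085 and 0.18 leaving out 1 library. Without that pair Hspa5 turned to -0.15, Hsp90b1 to -0.0047 and Calr to -0.34.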
